A study of Mus musculus with 11 samples.

Results

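Zeb2, its antisense transcript Zeb2os and its paralog Zeb1 were followed across dendritic cells of mouse spleen. With them went 5 genes that flank Zeb2 on mouse chromosome 2 (Gtdc1, Arhgap15, Kynu, Orc4 and Mbd5). The genes were chosen by symbol. Of these 8 genes, 7 had a probe set, 1 each, among the 19938 genes measured; no probe set carried the symbol, Entrez identifier or RefSeq accessions of Mbd5, which was not analysed here. Gene expression had been measured on 11 whole-transcript arrays of classical dendritic cells (cDCs), each from cells sorted from the spleens of C57BL/6 mice. Control CD24+ cDCs (3 arrays) and control CD172a+ cDCs (4 arrays) came from Zeb2(fl/fl) mice, and a further 4 arrays held CD172a+ cDCs of Zeb2(fl/fl);CD11c-Cre(tg) mice. All 3 groups therefore carried the floxed allele, and the last one alone carried Cre, driven by the promoter of the integrin gene Itgax (CD11c). The titles mark it CKO, for conditional knockout, and it is called labelled CKO here, because Zeb2 itself was not lower in it. The sources used here do not give age, sex, the exons between the loxP sites, or whether each array stands for its own animals. The p-values therefore measure array-to-array spread, which may be technical.

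Zeb2 and Zeb1 encode the vertebrate ZEB repressors, proteins with a cluster of zinc fingers at either end and a homeodomain-like stretch between them. They bind E-boxes with a CACCT core, recruit CtBP and other corepressors, and are best known for silencing epithelial genes such as Cdh1 during epithelial to mesenchymal transition. In blood cells Zeb2 acts in monocytes, natural killer cells, effector T cells, plasmacytoid dendritic cells (pDCs) and CD172a+ cDCs, and is known to hold back the fate of CD24+ cDCs, also called cDC1, as against the CD172a+ cDC2. The miR-200 family of microRNAs and the ZEB genes repress each other in epithelial cells.

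RefSeq lists 4 transcription start sites of Zeb2 in the promoter table of build GRCm38.p6. The 250 bases before 3 of them are printed, since Zeb2 is the gene the results turn on, 5′ to 3′ on the minus strand, with capitals marking CACCT or its complement AGGTG. The arrays do not show which start these cells use. The 4 windows were searched on both strands.
Start farthest upstream, chr2:45117443-45117692: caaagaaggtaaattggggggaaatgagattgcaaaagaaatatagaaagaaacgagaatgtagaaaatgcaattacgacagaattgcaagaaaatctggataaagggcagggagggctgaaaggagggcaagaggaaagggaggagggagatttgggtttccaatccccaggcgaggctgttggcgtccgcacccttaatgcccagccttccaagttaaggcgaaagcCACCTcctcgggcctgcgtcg
Second start, chr2:45113280-45113529: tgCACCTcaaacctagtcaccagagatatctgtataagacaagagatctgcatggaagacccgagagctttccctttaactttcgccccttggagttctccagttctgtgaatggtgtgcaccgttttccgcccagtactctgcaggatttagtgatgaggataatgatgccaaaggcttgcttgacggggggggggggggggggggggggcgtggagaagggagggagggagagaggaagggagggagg
Start farthest downstream, chr2:45110278-45110527: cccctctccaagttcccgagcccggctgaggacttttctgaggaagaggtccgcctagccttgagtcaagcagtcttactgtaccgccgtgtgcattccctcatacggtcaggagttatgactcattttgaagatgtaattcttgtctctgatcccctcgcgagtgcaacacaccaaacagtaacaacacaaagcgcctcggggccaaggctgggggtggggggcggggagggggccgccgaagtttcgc
The motif CACCT was found once in each of 3 of the 4 windows; 46.0% of the 32851 RefSeq windows of the same length hold it. The full ZEB E-box CACCTG, of which CACCT is a part, was found in 0 of the 4 against 17.2% of all windows, and the general E-box CANNTG in 0 of the 4 against 66.2%. The Ets core GAGGAA was present once in each of the 4, and 23.3% of all windows hold it. The unprinted window overlaps the second, so these are not 4 separate sequences, and a match describes letters only. No entry for Zeb2os or Kynu was matched. The windows of Orc4 and Mbd5 include 1 pair on opposite strands that share 240 of their 250 bases, so that these neighbours start head to head. The Orc4 window of that pair lies at chr2:48949268-48949517, megabases from the Zeb2 windows. Neighbour here therefore means order along the chromosome and not closeness.

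The sorted cells carried the markers of their labels. All 6 cDC markers (Flt3, Zbtb46, Itgax, Dpp4, Cd74 and H2-Ab1) lay above the median level of all genes (log2 5.53) in each group, with array means of the list from 9.97 to 10.65. Markers of cDC1 averaged 9.87 to 10.35 in CD24+ arrays and 6.14 to 6.48 in CD172a+ arrays, and cDC2 markers 4.80 to 5.19 and 8.10 to 8.99. Between the control groups 5 of 6 cDC1 and 6 of 6 cDC2 markers passed in limma, where 6.41% of all genes did. The exception was Batf3, which averaged 9.17 in CD24+, 8.83 in control CD172a+ and 9.22 in labelled CKO cDCs. Its control difference of 0.33 had an adjusted p of 0.542 in limma, and 0.0471 with array set as a blocking term. Itgax, whose promoter drives Cre, averaged 10.55 in control and 10.87 in labelled CKO CD172a+ cDCs. The second principal component over all genes (34.2% of the variance) parted the arrays into sets that cross the groups. The first set held replicates 1 and 2 of both CD172a+ groups and CD24+ replicate 1, and the second set the other 6 arrays. No label names these sets; they were found from the values, and results are also given within them.

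Zeb2 (probe set 10482448) was high in every CD172a+ array and low in every CD24+ array. Replicates 1 to 4 of control CD172a+ cDCs read 8.23, 8.23, 8.26 and 8.61 on the log2 scale (8.33 ± 0.19, mean and SD, n = 4). Those labelled CKO read 8.52, 8.32, 9.07 and 9.24 (8.79 ± 0.44, n = 4). The 3 CD24+ arrays read 5.19, 5.08 and 5.52 (5.26 ± 0.23, n = 3). CD24+ arrays did not overlap with either CD172a+ group, whereas labelled CKO replicates 1 and 2 lay among the control CD172a+ values and replicates 3 and 4 above them. The CD24+ values lie under the median level of all genes, where values made by robust multi-array averaging (RMA) are compressed, so folds against them are not exact ratios.

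Zeb2 was 8.4-fold lower in control CD24+ than in control CD172a+ cDCs (log2 -3.07, SE 0.217, adjusted p = 6.42e-06 in limma; exact two-sided permutation p = 0.0286, the smallest that 3 against 4 arrays can give). It was lower in 3 of 3 CD24+ arrays than in any CD172a+ array, and the difference was -3.04 in the first array set, which holds 1 CD24+ array, and -3.14 in the second. Between labelled CKO CD172a+ and control CD24+ cDCs the difference was 3.52 (SE 0.217, adjusted p = 2.58e-06 in limma), or 3.23 and 3.86 within the sets. Because the 2 comparisons share the CD24+ arrays, they are not independent. In a bulk sample, fewer cells that express a gene and less RNA per cell cannot be told apart.

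Zeb2 was not lower in the arrays labelled CKO. The difference from control CD172a+ cDCs was 0.45 (SE 0.201), with a 95% interval of 0.01 to 0.90, an unadjusted p of 0.046 and an adjusted p of 0.998 in limma, and an exact permutation p of 0.171. Within each array set both labelled CKO arrays read above both control arrays, by means of 0.19 and 0.72 for the first and second set. The difference between sets, tested as an interaction on the 8 CD172a+ arrays, was 0.53 with an adjusted p of 0.769 in limma (unadjusted p = 0.0348). The sources used here do not place the probes relative to the floxed exons, and a probe set outside the deleted part, or one that spans the whole transcript, checks little about the deletion.

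Of the marker lists of other cell types, 1 of 7 monocyte and 1 of 7 pDC markers passed between labelled CKO and control CD172a+ cDCs in limma, where 0.0502% of all genes did. The counts were 0 of 9 for macrophage (0 at an unadjusted p below 0.05), 0 of 6 for natural killer cell (0), 0 of 5 for B cell (1), 0 of 5 for T cell (0) and 0 of 6 for neutrophil markers (0). An unadjusted p below 0.05 in limma was reached by 3 of 7 monocyte and 3 of 7 pDC markers, against 773 of all 19938 genes. Monocyte markers (7 of 8 measured), a lineage that expresses Zeb2, averaged 6.93 to 7.02 in control and 6.30 to 6.44 in labelled CKO CD172a+ arrays, and 6.65 to 6.97 in CD24+ arrays. The marker that passed was the lysozyme gene Lyz2 (-1.66, adjusted p = 0.00894 in limma). It averaged 10.96 in CD24+, 10.82 in control CD172a+ and 9.17 in labelled CKO cDCs, so it was not low in CD24+ cDCs. Ccr2 averaged 7.50 in CD24+ against 6.36 in control CD172a+ cDCs, while Csf1r (5.70 against 8.42) and Ace (5.07 against 6.47) were lower in CD24+ cDCs. Without a block Ccr2 (-1.23, adjusted p = 0.637 in limma) and Csf1r (-0.94, adjusted p = 0.129 in limma) did not pass. Their unadjusted p-values in limma were 0.00137 and 8.42e-05. Treml4 (-0.45) did not pass either, and Ace (-0.14), F13a1 (0.04) and Fcgr1 (0.07) were near 0. With array set as a blocking term 2 monocyte markers were lower, where 0.145% of all genes passed. Csf1r then passed (adjusted p = 0.0304 in limma), but not with the replicate block (adjusted p = 0.123). Macrophage markers (9 of 9) spanned 5.85 to 7.41 in control CD172a+, 5.84 to 7.33 in labelled CKO and 5.21 to 5.91 in CD24+ arrays. In control CD172a+ arrays each of them but Adgre1 read higher in both arrays of the second set than in either of the first. C1qc read 6.01 and 5.93 in the first set and 8.92 and 9.16 in the second. Its labelled CKO values were 5.15 and 5.55, and 8.99 and 8.15. For pDC markers (7 of 8) the ranges were 5.79 to 6.18 in control CD172a+, 6.25 to 6.44 in labelled CKO and 6.22 to 6.36 in CD24+ arrays. Here Cox6a2 alone passed (2.09, adjusted p = 0.000197 in limma), and the other 6 went both ways, from -0.61 (Cd209d) to 0.43 (Siglech). Natural killer cell markers (6 of 6) averaged at most 4.76 in any array. B cell markers (5 of 6) reached 5.90, T cell markers (5 of 6) 5.61 and neutrophil markers (6 of 6) 5.21. The B cell average hides Ms4a1, which did not overlap between the CD172a+ groups. It read 6.68, 6.57, 5.44 and 6.10 in control and 8.64, 8.65, 7.79 and 7.79 in labelled CKO arrays. The median difference of the B cell list was -0.03. With array set as a blocking term 1 B cell marker was higher in labelled CKO cDCs (0.145% of all genes passed), and with the replicate block 0 were. Array values have no true zero, and the part of these cells in the Zeb2 values was not tested.

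Zeb2os (probe set 10471945), the long noncoding RNA read from the opposite strand at the 5′ part of Zeb2, followed the subsets in the same direction. Control CD172a+ arrays read 6.48, 6.70, 6.33 and 6.28 (mean 6.45 ± 0.19, SD, n = 4), labelled CKO arrays 7.14, 6.84, 6.28 and 6.44 (mean 6.68 ± 0.39, SD, n = 4), and CD24+ arrays 4.32, 4.48 and 4.54 (mean 4.45 ± 0.11, SD, n = 3). CD24+ arrays again stood below all the others, and the 2 CD172a+ groups overlapped. Zeb2os was lower in CD24+ than in control CD172a+ cDCs (log2 -2.00, SE 0.19, nominally 4-fold, adjusted p = 6.85e-05 in limma; -2.27 and -1.79 within the sets) and higher in labelled CKO than in CD24+ cDCs (log2 2.23, adjusted p = 3.03e-05 in limma). Its CD24+ values lie further under the median level of all genes than those of Zeb2, so these are not exact ratios either. Between labelled CKO and control CD172a+ cDCs it differed by 0.23, with a 95% interval of -0.16 to 0.62 (adjusted p = 0.998 in limma, exact permutation p = 0.343). The value was 0.08 without labelled CKO replicate 1 and 0.36 without labelled CKO replicate 3. The sources used here do not say whether the labelled target kept the strand of the RNA.

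**Figure D1:**
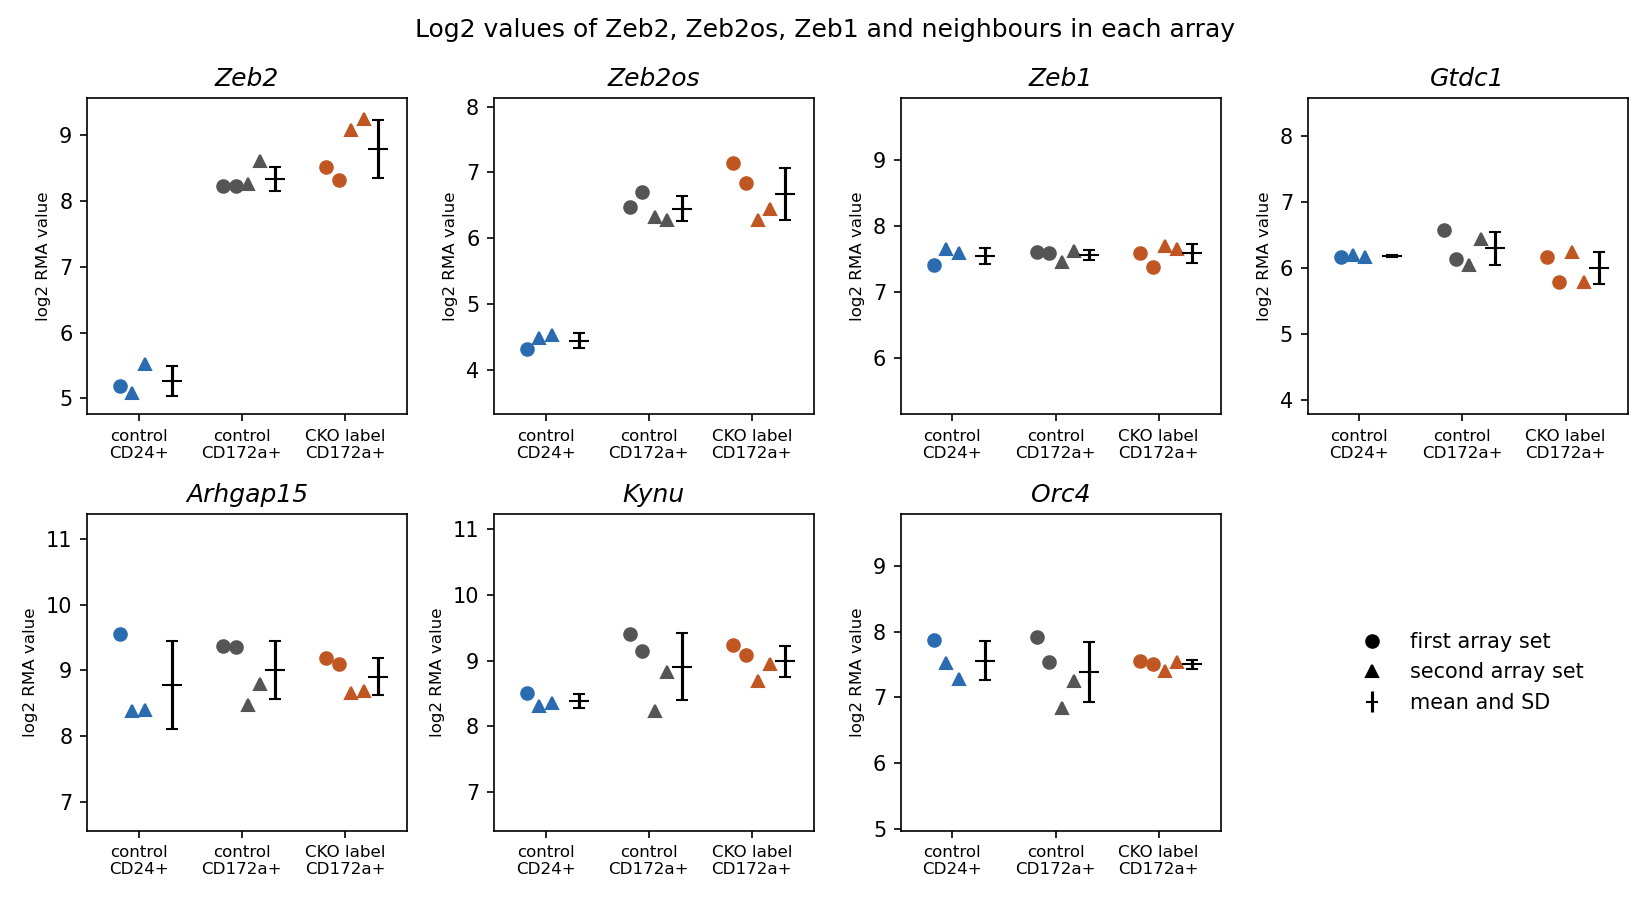
Each panel gives the log2 RMA values of 1 gene in the 11 arrays by group, with circles for the first and triangles for the second array set and the group mean with SD beside them; every panel spans the same log2 height. Zeb2 and Zeb2os sit low in all 3 CD24+ arrays (5.08 to 5.52 and 4.32 to 4.54), while the other 5 genes overlap between control groups.

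The sense and antisense transcripts did not move alike within the CD172a+ arrays. Zeb2 was highest in labelled CKO replicates 4 and 3, whereas Zeb2os was highest in labelled CKO replicates 1 and 2. With group in the model, Zeb2 differed between the second and first array sets by 0.38 (adjusted p = 0.0394 in limma). Zeb2os differed by -0.30, which did not pass (adjusted p = 0.0814 in limma). The sets were found from these values, so both differences are descriptive. Zeb2 minus Zeb2os within an array was 1.53 to 2.34 in control CD172a+ cDCs, 1.38 and 1.47 in labelled CKO replicates 1 and 2, 2.79 and 2.80 in replicates 3 and 4, and 0.60 to 0.98 in CD24+ cDCs. The mean of this difference fell by 1.07 from control CD172a+ to CD24+ cDCs (exact permutation p = 0.0286, adjusted p = 0.0429 over the 18 within-array comparisons made). The change of 1.29 between labelled CKO and CD24+ cDCs did not pass (exact permutation p = 0.0857, adjusted p = 0.11). Because both genes lie under the median level in CD24+ cDCs, where values are compressed, these differences do not show which of them changed more. The difference moved by 0.22 between labelled CKO and control CD172a+ cDCs (exact permutation p = 0.657).

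**Figure D2:**
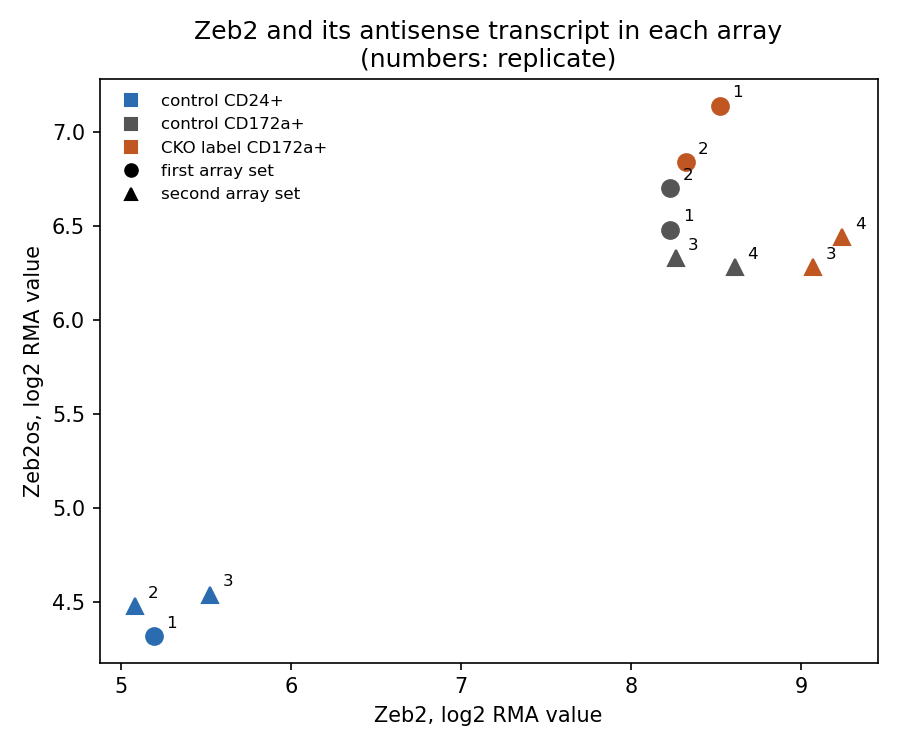
Zeb2 (horizontal) against Zeb2os (vertical), both as log2 RMA values, with 1 point for each array, coloured by group, shaped by array set and numbered by replicate. The CD24+ arrays lie at the lower left, and among the CD172a+ arrays those of the first set read 6.48 or more for Zeb2os and those of the second 6.44 or less, while labelled CKO replicates 3 and 4 are above 9 for Zeb2.

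Zeb1 (probe set 10453678), the paralog with the same kind of DNA-binding fingers, read alike in the 3 groups. Control CD172a+ arrays gave 7.60, 7.58, 7.45 and 7.62 (mean 7.56 ± 0.08, SD, n = 4), labelled CKO arrays 7.59, 7.38, 7.70 and 7.65 (mean 7.58 ± 0.14, SD, n = 4) and CD24+ arrays 7.41, 7.65 and 7.58 (mean 7.55 ± 0.12, SD, n = 3). The groups overlapped throughout. The 95% interval of the difference was -0.24 to 0.21 between CD24+ and control CD172a+ cDCs and -0.19 to 0.23 between labelled CKO and control CD172a+ cDCs (adjusted p = 0.977 and 0.998 in limma). Within an array, Zeb2 minus Zeb1 was -2.57 to -2.06 in CD24+ and 0.63 to 1.00 in control CD172a+ cDCs, a change of -3.06 (exact permutation p = 0.0286, adjusted p = 0.0429). Because Zeb1 itself differed by -0.02, this change largely restates that of Zeb2. In labelled CKO arrays Zeb2 minus Zeb1 was 0.93 to 1.59, a change of 0.43 that did not pass (exact permutation p = 0.0857).

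Gtdc1 (probe set 10482434), a glycosyltransferase gene and the nearest protein-coding neighbour on one side of Zeb2, did not share the subset difference. It read 6.58, 6.13, 6.05 and 6.44 in control CD172a+ arrays (mean 6.30 ± 0.25, SD, n = 4), 6.17, 5.79, 6.24 and 5.78 in those labelled CKO (mean 6.00 ± 0.24, SD, n = 4) and 6.17, 6.20 and 6.17 in CD24+ arrays (mean 6.18 ± 0.02, SD, n = 3). All groups overlapped, and the differences were -0.12 for CD24+ and -0.30 for labelled CKO against control CD172a+ cDCs (adjusted p = 0.855 and 0.998 in limma). The 95% interval of the latter ran from -0.62 to 0.02. Zeb2 minus Gtdc1 within an array did not overlap between the CD172a+ groups. It read 1.65, 2.10, 2.21 and 2.17 in control and 2.35, 2.52, 2.83 and 3.46 in labelled CKO arrays. The change was 0.76 (exact permutation p = 0.0286, the smallest possible, adjusted p = 0.0429 over 18 comparisons), 0.56 in the first and 0.95 in the second array set, and higher in 4 of 4 labelled CKO arrays than in any control array. Of the 6 within-array differences tested between these groups it was the 1 with an adjusted p below 0.05, and the others had exact permutation p-values from 0.0857 (Zeb1) to 0.657 (Zeb2os), with Arhgap15 at 0.286, Orc4 at 0.4 and Kynu at 0.429. The 18 comparisons include 12 against CD24+ cDCs that share the large difference of Zeb2. Adjusted over the 6 comparisons of these groups alone, a family chosen after seeing the data, it did not pass (adjusted p = 0.172 from the exact permutation test).

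Arhgap15 (probe set 10471929), a GTPase-activating protein for Rac in blood cells and the next gene beyond Gtdc1, followed the array sets and not the groups. Its values were 9.37, 9.36, 8.48 and 8.79 in control CD172a+ arrays, 9.19, 9.10, 8.65 and 8.68 in labelled CKO arrays and 9.55, 8.39 and 8.40 in CD24+ arrays. Each array of the first set read above 9 and each of the second set below it, whatever the cell type. With group in the model, the second set differed from the first by -0.74 (adjusted p = 0.000272 in limma). Between groups the differences were -0.22 for CD24+ and -0.10 for labelled CKO against control CD172a+ cDCs (95% intervals -0.91 to 0.46 and -0.73 to 0.54).

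Kynu (probe set 10471912) encodes kynureninase of tryptophan breakdown and lies beyond Arhgap15. It read 9.41, 9.15, 8.23 and 8.83 in control CD172a+ arrays (mean 8.91 ± 0.51, SD, n = 4), 9.24, 9.08, 8.69 and 8.94 in labelled CKO arrays (mean 8.99 ± 0.23, SD, n = 4) and 8.50, 8.31 and 8.35 in CD24+ arrays (mean 8.38 ± 0.10, SD, n = 3). Every labelled CKO array was above every CD24+ array, while control CD172a+ replicate 3 was below all 3 of them. The difference of labelled CKO from CD24+ cDCs was 0.61 (SE 0.237, adjusted p = 0.192 in limma, exact permutation p = 0.0571), and it passed once array set was a blocking term (0.53, adjusted p = 0.0387). That of CD24+ from control CD172a+ cDCs was -0.52 (adjusted p = 0.314 in limma), and it passed without control CD172a+ replicate 3 (-0.75, adjusted p = 0.0314). Within the array sets it was -0.78 and -0.21. With group in the model, Kynu differed between the second and first array sets by -0.45 (adjusted p = 0.0191 in limma).

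Orc4 (probe set 10482467), a subunit of the origin recognition complex that licenses DNA replication, lies on the other side of Zeb2. It read 7.92, 7.53, 6.84 and 7.25 in control CD172a+ arrays, 7.56, 7.51, 7.40 and 7.53 in labelled CKO arrays and 7.87, 7.52 and 7.28 in CD24+ arrays. Its spread was widest in control CD172a+ cDCs (mean 7.39 ± 0.46, SD, n = 4), and the other groups (7.50 ± 0.07, n = 4, and 7.55 ± 0.30, n = 3) fell inside that range. Those control values were 7.92 and 7.53 in the first array set and 6.84 and 7.25 in the second. With group in the model, Orc4 differed between the second and first sets by -0.40 (adjusted p = 0.0314 in limma). The difference was 0.17 for CD24+ and 0.12 for labelled CKO against control CD172a+ cDCs (adjusted p = 0.848 and 0.998 in limma).

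Of the 7 measured genes, 2 passed between control CD24+ and control CD172a+ cDCs in limma, Zeb2 and Zeb2os, both lower in CD24+ cDCs; over all genes 6.41% passed. The same 2 passed between labelled CKO CD172a+ and control CD24+ cDCs, where 7.17% of all genes did. Between labelled CKO and control CD172a+ cDCs 0 of 7 passed in limma, against 0.0502% of all genes. Of the 7, 1, Zeb2, had an unadjusted p below 0.05 in limma, as did 773 of all 19938 genes. With the array set as a block the counts were 2, 3 (with Kynu) and 0 of 7, against 15.4%, 18.3% and 0.145% of all genes. Counts over so few genes, chosen by name, say little against these shares. Within an array, Zeb2 changed unequally from each of the other 6 genes between CD24+ and control CD172a+ cDCs, with changes from -1.07 (Zeb2os) to -3.24 (Orc4). Each was at the smallest possible exact permutation p of 0.0286. For the genes other than Zeb2os these tests largely restate the difference of Zeb2 itself (-3.07). The largest difference among those genes was -0.52, for Kynu. The value for Zeb2os carries the limit of low levels given above.

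The wider neighbourhood was taken as the 8 nearest protein-coding genes on each side of Zeb2 in the RefSeq gene order of GRCm38.p6, of which 15 of 16 were measured. In order they are Arpc5l, Golga1, Scai, Ppp6c, Lrp1b, Kynu, Arhgap15 and Gtdc1, then Zeb2, then Acvr2a, Orc4, Mbd5, Epc2, Kif5c, Lypd6b, Lypd6 and Mmadhc. None of the 15 passed between control CD24+ and control CD172a+ cDCs in limma (0 of 15, 4 at an unadjusted p below 0.05), against 6.41% of all genes, and their median difference was -0.04, beside -0.017 over all genes. Between labelled CKO and control CD172a+ cDCs 0 of 15 passed in limma (0 unadjusted), against 0.0502% of all genes, with a median of -0.02 beside 0.006. Between labelled CKO and CD24+ cDCs 0 of 15 passed as well (4 unadjusted), against 7.17% of all genes. Of all 19938 genes, 3168, 773 and 3591 had an unadjusted p below 0.05 in limma in these comparisons, in the order given.

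Acvr2a, a type 2 receptor for activins and the nearest protein-coding gene on the side away from Gtdc1, did not pass in any comparison without a block. It averaged 6.66 ± 0.36 (SD, n = 3) in CD24+, 7.20 ± 0.09 (SD, n = 4) in control CD172a+ and 7.11 ± 0.24 (SD, n = 4) in labelled CKO cDCs. All CD24+ arrays lay below all CD172a+ arrays of both groups. The difference of CD24+ from control CD172a+ cDCs was -0.54 (adjusted p = 0.103 in limma, exact permutation p = 0.0286), -1.02 in the first and -0.26 in the second array set, and it passed once array set was a blocking term (-0.57, adjusted p = 0.0263). With that block 3 further neighbours passed in this comparison: Epc2, a subunit of the NuA4 acetyltransferase complex (-0.50, adjusted p = 0.0153), Arpc5l, a subunit of the Arp2/3 actin nucleator (0.40, adjusted p = 0.0226), and Mmadhc, a protein of vitamin B12 trafficking (0.63, adjusted p = 0.0285). These 4 of 15, 2 in each direction, compare with 15.4% of all genes.

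**Figure D3:**
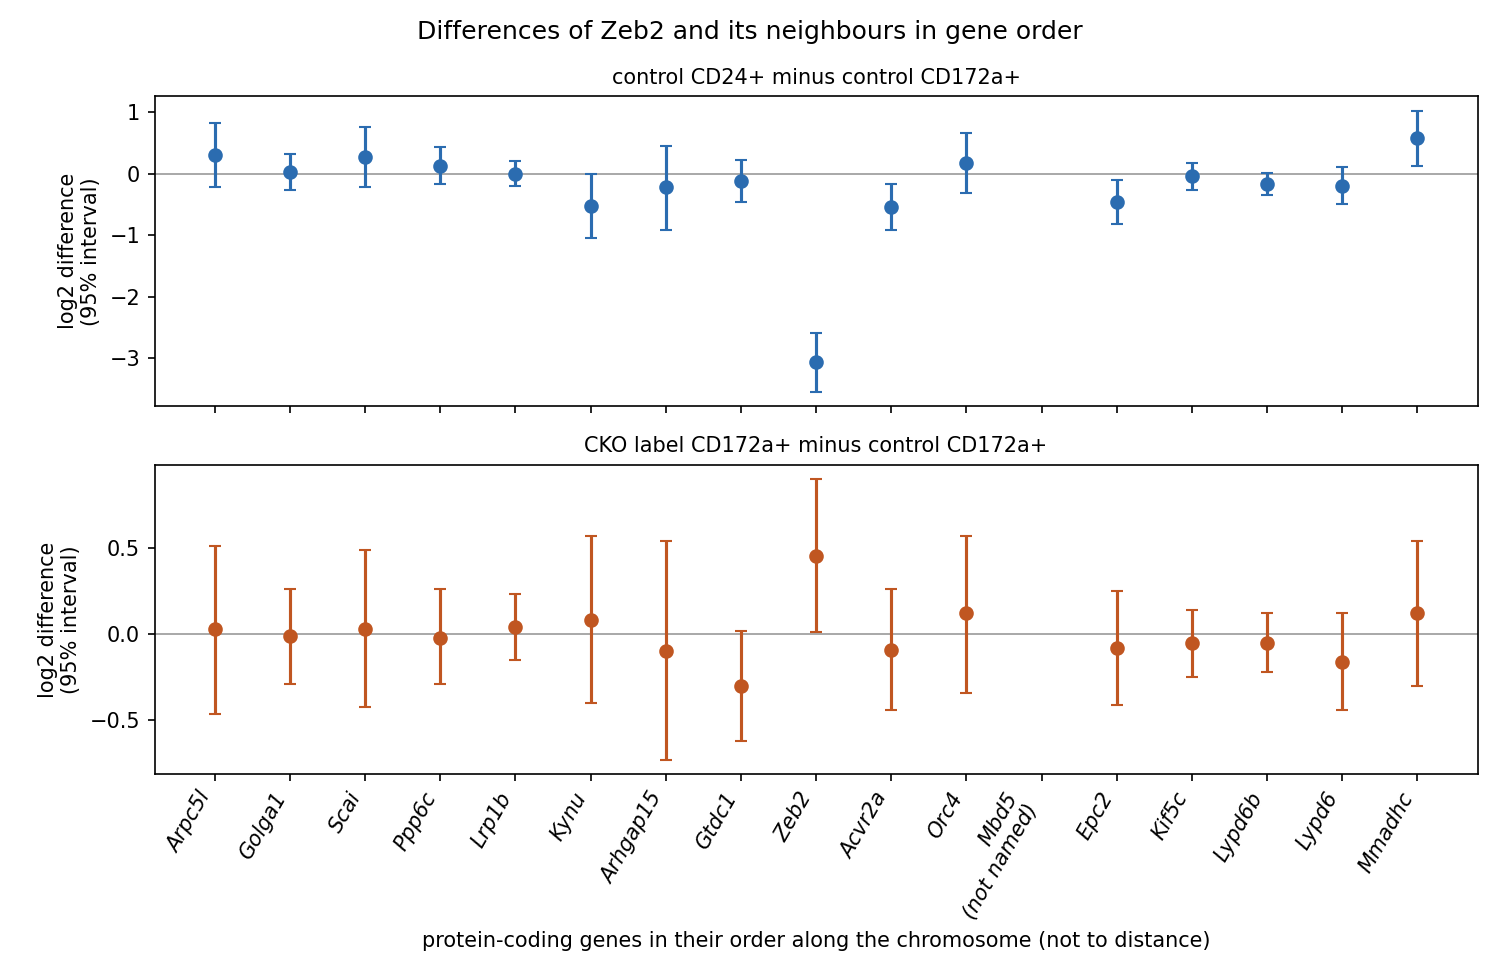
Log2 difference with 95% interval (vertical) for Zeb2 and the 15 measured neighbours, in their order along the chromosome and not drawn to distance (horizontal), for CD24+ against control CD172a+ cDCs above and labelled CKO against control CD172a+ cDCs below; the vertical scales differ. Zeb2 stands at -3.07 in the upper panel while its neighbours lie between -0.54 and 0.58, and in the lower panel Zeb2 (0.45) and Gtdc1 (-0.30) are the outermost points.

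Genes whose products work with ZEB proteins were measured from a list of 24 corepressors, SMADs and chromatin enzymes. Between labelled CKO and control CD172a+ cDCs 0 of 24 passed in limma (2 unadjusted), with a median difference of -0.07 beside 0.006 over all genes. Over all 19938 genes 10 passed there, and 773 had an unadjusted p below 0.05 in limma. Between CD24+ and control CD172a+ cDCs 1 was higher and 1 lower, a share near the 6.41% of all genes that passed, so the list is not set apart by it. Kat2b, the acetyltransferase PCAF that binds ZEB proteins, was higher in CD24+ cDCs (7.37 ± 0.37, n = 3, against 6.72 ± 0.13, n = 4; 0.65, adjusted p = 0.0273 in limma), by 0.31 and 0.81 within the sets. Smad4, the common SMAD of TGF-beta and BMP signalling, was lower (8.22 ± 0.20, n = 3, against 8.83 ± 0.07, n = 4; -0.60, adjusted p = 0.0206 in limma), by -0.53 and -0.61. Kat2b was also lower in labelled CKO than in CD24+ cDCs (-0.77, adjusted p = 0.0103 in limma), the 1 gene of the 24 that passed there, against 7.17% of all genes. With array set as a blocking term 1 was higher and 8 were lower in that comparison (18.3% of all genes passed), and 3 were higher and 2 lower in CD24+ than in control CD172a+ cDCs (15.4%); with the replicate block the counts were 0 and 2, and 2 and 1.

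Factors tied to Zeb2 in blood cells formed a list of 12, and 2 were higher and 5 lower in CD24+ than in control CD172a+ cDCs, against 6.41% of all genes, with a median difference of -0.12. The list was chosen with these subsets known, so its count is not independent evidence. The higher ones were Irf8, a factor of the CD24+ lineage (3.07, adjusted p = 0.00146 in limma; 4.85 and 1.92 within the sets), and Id2, an inhibitor of E proteins (1.02, adjusted p = 0.00971). Among the lower ones were Irf4, a factor of CD172a+ cDCs (-3.21, adjusted p = 0.000386; -4.44 and -2.38 within the sets), Tbx21, the T-bet factor that works with Zeb2 in effector T cells (-1.29, adjusted p = 0.0407; -1.32 and -1.48), Klf4 (-0.95, adjusted p = 0.00162) and Tcf4, the E protein of pDCs (-0.63, adjusted p = 0.00804). The fifth, Cebpb (-0.68, adjusted p = 0.0312), falls outside the rule for naming and was named after its value was seen. Between labelled CKO and control CD172a+ cDCs 0 of 12 passed in limma (3 unadjusted, median 0.04). Over all 19938 genes 10 passed, and 773 had an unadjusted p below 0.05 in limma. Against CD24+ cDCs, 4 were higher in labelled CKO cells, among them Irf4 (3.55), Tbx21 (1.37) and Klf4 (1.25), and 1, Irf8, was lower (-3.01), against 7.17% of all genes.

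The microRNAs that repress ZEB genes were looked at through the probe sets that carry the names of their hairpin genes, which do not measure the mature form. The mature 3p arms from RefSeq (GRCm38.p6), with the seed (bases 2 to 8) in capitals, fall into 2 groups by shared seed, AAUACUG for the first 3 and AACACUG for the other 2. They are shown because the seed is the part that pairs with ZEB messages.
miR-200b-3p: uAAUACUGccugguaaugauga
miR-200c-3p: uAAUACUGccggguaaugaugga
miR-429-3p: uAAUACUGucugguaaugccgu
miR-200a-3p: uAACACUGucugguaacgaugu
miR-141-3p: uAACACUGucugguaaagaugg
Of the 6 genes of the list, which also holds Mir205, 5 were measured and Mir429 was not. None passed in any of the 3 comparisons (0 of 5 in limma; 0 at an unadjusted p below 0.05 in each), and all 5 had group means at or below 5.11, under the median level of all genes. Epithelial to mesenchymal transition factors and their opponents (13 of 13 measured) gave 1 call in limma, Tcf4, between CD24+ and control CD172a+ cDCs. This share was near the 6.41% of all genes, and the other comparisons gave 0 calls. Between labelled CKO and control CD172a+ cDCs 1 of 13 had an unadjusted p below 0.05 in limma, against 773 of all 19938 genes. Between labelled CKO and CD24+ cDCs 2 of 13 did, against 3591.

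The genes whose pattern over the 11 arrays was most like that of Zeb2 were ranked by Pearson's r among 9429 named genes above the median level. The measure is a description, set largely by the gap between CD24+ and CD172a+ arrays, which form separate clusters. The leading 5 were Arid5b, an AT-rich interaction domain regulator (r = 0.993), Ptpn3, a tyrosine phosphatase (0.990), Ptchd1 (0.990), Tlr7, the receptor for single-stranded RNA (0.988), and Hpgds, the prostaglandin D synthase of blood cells (0.988). Within the 8 CD172a+ arrays alone r with Zeb2 was 0.972 for Arid5b, 0.925 for Ptpn3, 0.911 for Hpgds, 0.811 for Tlr7 and 0.770 for Ptchd1. The 5 genes were picked over 11 arrays that include these 8, so these values are not independent of the choice. Arid5b read 7.84, 7.87, 7.96 and 8.28 in control CD172a+ arrays, 8.03, 8.02, 8.55 and 8.56 in labelled CKO arrays and 5.72, 5.80 and 6.43 in CD24+ arrays. Like Zeb2, it was highest in labelled CKO replicates 3 and 4, and highest among CD24+ arrays in replicate 3. Most opposite were the lysosomal amidase gene Naaa (r = -0.986), the lysosomal beta-glucuronidase gene Gusb (-0.986) and the metalloprotease gene Adam8 (-0.980).

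**Figure D4:**
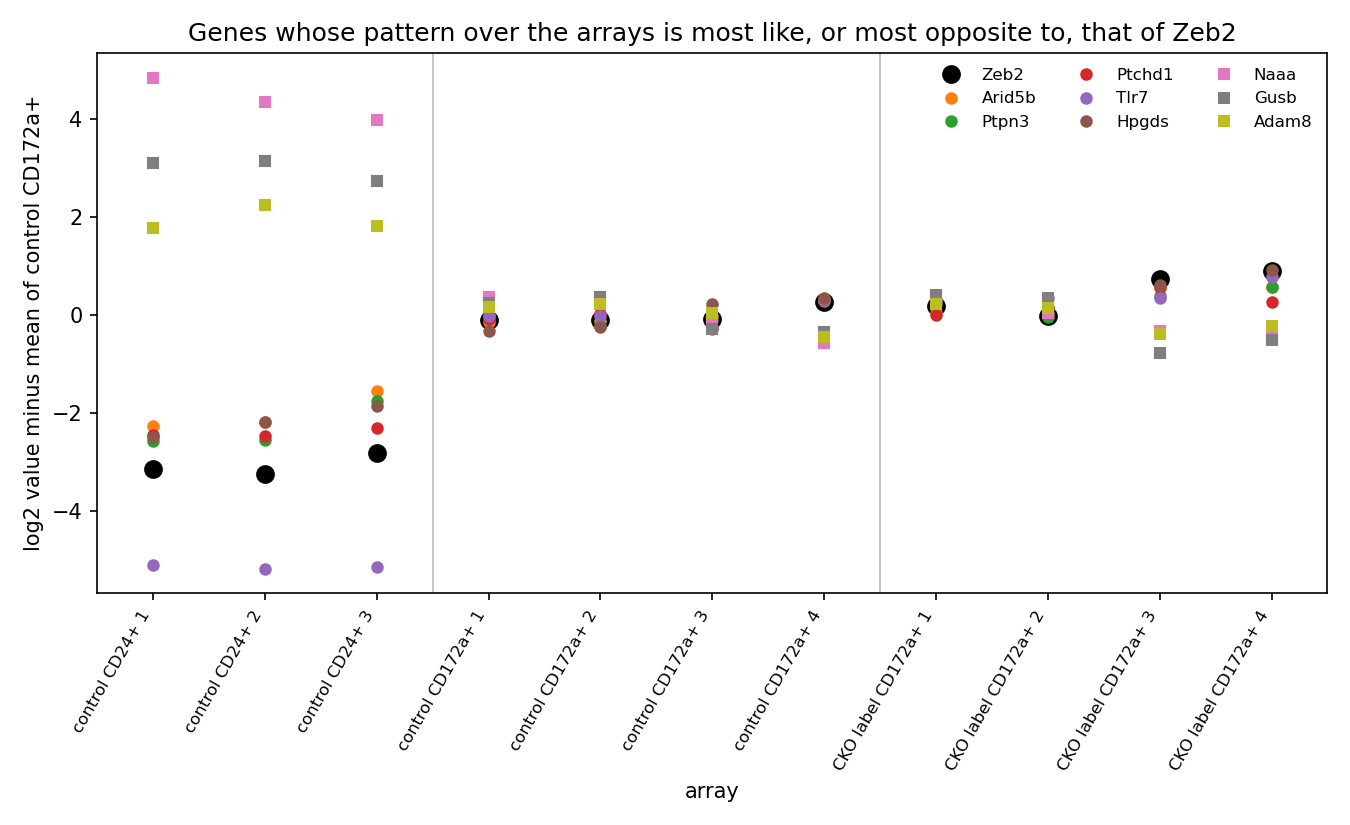
Log2 value minus the mean of the 4 control CD172a+ arrays (vertical) in each array (horizontal) for Zeb2 in black, the 5 genes with the highest r (circles) and the 3 with the lowest (squares). All 6 circle series lie below 0 in the CD24+ arrays and at their highest, except for Ptchd1 and Tlr7, in labelled CKO replicates 3 and 4.

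Among the members, Zeb2os was most like Zeb2 over the 11 arrays (r = 0.927), followed by Kynu (0.600). The others gave 0.221 for Zeb1, 0.096 for Arhgap15, -0.124 for Gtdc1 and -0.190 for Orc4. Within the 8 CD172a+ arrays the order was different, and r with Zeb2 was highest for Zeb1 (0.652). There it was -0.001 for Orc4, -0.187 for Kynu, -0.265 for Gtdc1, -0.325 for Zeb2os and -0.549 for Arhgap15. The genes most like Zeb1 over the 11 arrays were Nab1, a corepressor of Egr factors (r = 0.878), Bmpr2, a BMP receptor (0.874), Wasl, the actin regulator N-WASP (0.854), the lysosomal carboxypeptidase gene Prcp (0.854) and Trim24 (0.848). Their group means differed little, as did those of Zeb1: Bmpr2 averaged 7.65 in CD24+, 7.61 in control CD172a+ and 7.68 in labelled CKO cDCs.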

How the data were processed

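Per the submitters' processing notes, the authors made the deposited log2 values with RMA, which corrects background, normalizes by quantiles and summarizes probes. They cover 30177 probe sets on 11 arrays, and no further normalization was applied here. Array medians ran from 5.454 to 5.521. GEO's platform annotation gave 1 symbol to 21789 probe sets, several to 1621 and none to 6767; 21698 matched RefSeq (GRCm38.p6). Where several probe sets named 1 of the 19938 genes, the one brightest on average was kept. limma 3.58.1 in R 4.3.3 (lmFit and eBayes) was fitted over all 3 groups without a block, with Benjamini-Hochberg adjustment over all genes and a threshold of 0.05, after it was tested on simulated data. Single values and within-array differences were tested by exact two-sided permutation of arrays. Python 3.11.15 and matplotlib 3.10.9 were used for matching and plots.

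The genes, lists, array sets and tests were chosen with earlier results of these data known. By rule, all 8 genes were described, with the 5 genes most like Zeb2 or Zeb1 and the 3 most opposite to Zeb2 (Pearson's r, genes above the median, no predicted genes), neighbours of Zeb2 that passed or adjoin it, and, for each list and comparison, up to 4 called genes with the largest difference. Same-numbered arrays deviated together between the CD172a+ groups (r from 0.442 to 0.68 over 4 pairs), as did differently numbered arrays of the same array set (r from 0.496 to 0.699). Between CD24+ and control CD172a+ cDCs, same-numbered arrays gave r from -0.445 to 0.506 over 3 pairs. The lowest was that of replicates 2, which lie in different array sets. Pairs of these groups from the same array set gave r from 0.241 to 0.582. Alternatives were a replicate block, an array-set block, each set alone, all probe sets, genes above the median, centring, a variance trend, only the groups compared, and leaving out each array.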

Additional observations from a re-analysis of the deposited data

Results flagged for a closer look

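Zeb2 in control CD172a+ replicate 4 read 8.61, while the other 3 arrays of that group read 8.23 to 8.26. The gap to the nearest array was 0.92 of the group's range, above Dixon's 95% critical value; 14 groups of 4 arrays were examined, and chance marks about 1 group in 20. Without any 1 array in turn, this one among them, the difference of CD24+ from control CD172a+ cDCs stayed between -3.20 and -2.98.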

How the results depend on the processing

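Counts of called genes among the 7 stayed within 1.5 times of the value given under all 49 alternatives, and 313 recomputed differences of single genes kept direction and side of the threshold, with 27 turning sign and 3 newly passing. Zeb2 ran from -3.20 to -2.98 for CD24+ against control CD172a+ cDCs and from 0.30 to 0.61 for labelled CKO against control CD172a+ cDCs when each array was left out. With replicate number as a block, Zeb2 gave 0.45 for labelled CKO against control CD172a+ cDCs (adjusted p = 0.477 in limma), -2.95 for CD24+ against control CD172a+ cDCs and 3.40 for labelled CKO against CD24+ cDCs, and no call among the 7 changed. The 3 differences that newly passed were all of Kynu: blocking on array set (0.53), with only the 2 groups fitted (0.61), and without control CD172a+ replicate 3 (-0.75; range -0.75 to -0.35).

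The 27 that turned sign were uncalled differences of Zeb1, Kynu, Orc4 and Arhgap15; the cause was not tested. For labelled CKO against control CD172a+ cDCs the first array set alone gave -0.11 for Zeb1, -0.12 for Kynu and -0.19 for Orc4, and the second 0.03 for Arhgap15. For CD24+ against control CD172a+ cDCs, Zeb1 gave 0.01 with the replicate block, 0.08 in the second set and 0.02 with centred arrays, and Arhgap15 0.19 in the first set. For labelled CKO against CD24+ cDCs, Arhgap15 gave -0.41 in the first set, Orc4 0.07 in the second and Zeb1 -0.02 with centred arrays. Leaving out each array gave, in the first comparison, -0.02 to 0.09 for Zeb1, -0.14 to 0.25 for Kynu, -0.07 to 0.29 for Orc4 and -0.27 to 0.03 for Arhgap15. It gave -0.07 to 0.05 for Zeb1 and -0.02 to 0.35 for Orc4 in the second, and -0.04 to 0.10 for Zeb1, -0.19 to 0.10 for Orc4 and -0.07 to 0.51 for Arhgap15 in the third.

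Over all genes the calls between the CD172a+ groups numbered 10, but 29 with the set block, 5 with only those groups fitted and 0 in the first set alone (2260 at an unadjusted p below 0.05). The set block raised those of CD24+ against control CD172a+ cDCs from 1278 to 3080 and of labelled CKO against CD24+ cDCs from 1429 to 3641. The 3 or 4 arrays a group limit the precision.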
